A study of Homo sapiens with 12 samples.

Results

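The matrix metalloproteinases (MMPs), the ADAM and ADAMTS proteases, and their tissue inhibitors (TIMPs) were examined in TIGK cells, human gingival keratinocytes that hTERT had made immortal, at 48 mM glucose with or without added L-arginine (Arg). The genes were the protein-coding rows of the count table whose symbol is MMP, ADAM, ADAMTS, or TIMP followed by a number. This gave 65 of 58735 genes, made up of 22 MMPs, 20 ADAMs, 19 ADAMTSs, and 4 TIMPs. Untreated control cells and cells given 500 μM Arg were collected at 24 and 48 h, with 3 libraries (replicates A, B, and C) in each of the 4 groups and 12 libraries in all. All groups were kept in the same Arg-free base medium with insulin, epinephrine, apo-transferrin, TGF-α, pituitary extract, and hydrocortisone, and the line as a whole carries the hTERT gene. TIGK is a single immortalized line, and nothing in the labels says that the replicates came from separate cultures, so the p-values measure only the spread between these samples, which may be technical.

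MMPs are zinc-dependent proteases that are made as inactive precursors and cut collagens, gelatins, proteoglycans, and other matrix proteins. ADAMs sit in the cell membrane and release the outer parts of growth factors, cytokines, and receptors, while ADAMTSs are secreted and cut matrix proteoglycans and procollagens. TIMPs bind the active site of these enzymes, and TIMP3 stays attached to the matrix and blocks ADAM17 as well as MMPs. Keratinocytes at a wound edge are known to make the collagenase MMP1 and the stromelysin MMP10, and the same enzymes are studied in gingival tissue breakdown.

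The libraries held between 16542243 and 19040964 counts, and the 65 genes together took between 0.124% and 0.166% of them. All 17 keratinocyte markers were at 1 CPM (counts scaled to the TMM-normalized library size) or more, and their summed level lay between 47001 and 59787 CPM. Of the markers of other cell types, 4 of 10 for fibroblasts, 1 of 6 for endothelial cells, 1 of 7 for leukocytes, and 2 of 5 for melanocytes were at 1 CPM or more, while LYZ, MS4A1, and TYR had 0 counts in all libraries. Control replicate B at 48 h stood apart from its group. Its counts gave a chi-square per degree of freedom of 20.9 and 23.9 against replicates A and C, where the other pairs of replicates lay between 3.66 and 12.5, and mitochondrially encoded genes took 1.55% of its counts against 0.906% and 0.707%. The members whose calls changed without this library are named beside the comparisons it enters. To a lesser degree, control replicate B at 24 h differed from A and C (12.3 and 12.5, against 6.54 between A and C). Arg replicate A at 24 h differed from B and C (12.4 and 10.9, against 5.41 between B and C).

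Of the 65 genes, 29 passed the filter on low counts in at least 1 of 5 comparisons (12 MMPs, 9 ADAMs, 4 ADAMTSs, and all 4 TIMPs), and 25 passed in all 5. The other 36 were tested in no comparison. Of these, 8 had 0 counts in every library, and 28 had between 1 and 115 counts over all 12 libraries. The matrilysins MMP7 and MMP26 and all 3 procollagen N-proteinases of the ADAMTS family were among those not tested. The highest total, 115 counts, was that of the stromelysin MMP3, whose counts were 34, 4, and 43 in the 24 h control and 7, 1, and 7 in the 24 h Arg group. The summed MMP3 counts of 81 and 15 gave a ratio of control to Arg of 5.41 (95% exact binomial interval 3.10 to 10.1, counting error only). The groups overlapped, since control replicate B at 4 counts lay below the Arg libraries at 7. MMP3 was called for Arg at 24 h with no filter on low counts (log2 fold change -2.42, adjusted p = 0.000738). It was also called without control replicate B at 24 h (-2.93, adjusted p = 0.00233), where it passed the filter only through the remaining control libraries.

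Levels of different genes were compared as CPM per kilobase of exonic length. In the 24 h control, TIMP3 was highest at 82.5 ± 4.72 (SD, n = 3), followed by TIMP1 at 56.8 ± 8.30, the membrane-type MMP14 at 47.2 ± 5.33, and the disintegrin ADAM15 at 32.6 ± 2.36. ADAM9 at 20.4 ± 1.21, MMP1 at 18.1 ± 10.8, and TIMP2 at 17.3 ± 2.50 came next, and then the sheddases ADAM10 at 11.2 ± 0.838 and ADAM17 at 3.91 ± 0.485. The ranges of TIMP1 and MMP14 overlapped, as did those of ADAM9 and MMP1 and those of MMP1 and TIMP2, so the order within these pairs was not distinct. At 48 h, MMP14 was first in both media, at 79.0 ± 0.560 without Arg and 80.9 ± 5.74 with Arg per kilobase, and TIMP3 was second at 74.2 ± 13.1 and 52.9 ± 3.46. Those ranges overlapped in the control and not in the Arg group. MMP1 showed the widest span of the abundant members, and its level per kilobase was 18.1, 2.32, 1.32, and 0.450 in the 24 h control, 24 h Arg, 48 h control, and 48 h Arg groups.

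**Figure D1:**
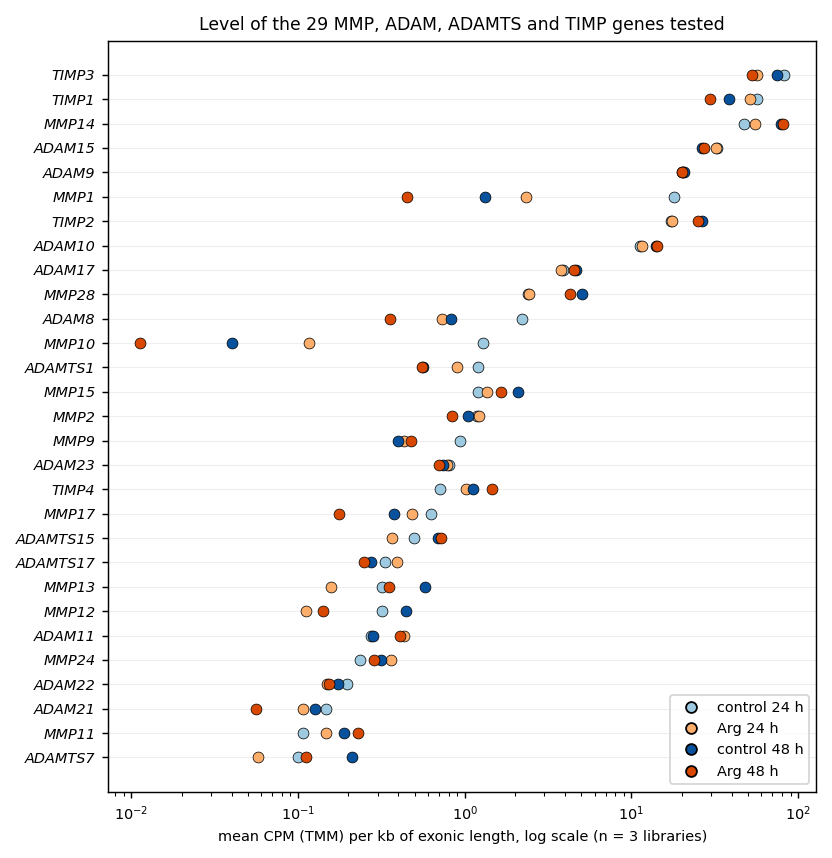
Mean CPM per kilobase of exonic length (log axis, n = 3 libraries per point) of the 29 genes that passed the filter in at least 1 comparison, with 1 point for each group. TIMP3, TIMP1, and MMP14 are the 3 highest in all 4 groups, while the 4 points of MMP1 are spread from 0.450 to 18.1.

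The first question was which of these genes differed between Arg-treated and untreated cells at 24 h. MMP1, MMP10, ADAM8, and TIMP3 were lower with Arg, and no member was higher. Of the 26 members tested, edgeR's quasi-likelihood test called 4 (15.4%) at an adjusted p under 0.05, against 6.63% of all genes tested. All 4 were lower and 0 were higher, where 3.84% of all genes were called lower and 2.79% higher. These counts include MMP10, which passed the filter only through the 24 h control, the group in which it was high. At an unadjusted p under 0.05, 5 members differed (19.2%), against 22.8% of all genes. The median log2 fold change of the 26 members was -0.034, and that of all genes tested was 0.0030. In 9 members the groups did not overlap (34.6% of 26), against 26.2% of all genes.

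MMP1 (ENSG00000196611), the interstitial collagenase that cuts fibrillar collagens, changed most among the abundant members. It stood at 28.4, 18.9, and 59.4 CPM in replicates A, B, and C of the 24 h control and at 6.29, 5.18, and 2.26 CPM in the 24 h Arg group. Every Arg library was below every control library, although the control libraries themselves spanned a wide range. The log2 fold change was -2.96 (SE 0.35, adjusted p = 6.06e-05), a 7.80-fold lower level. Without control replicate C, the highest library, it was -2.38 (adjusted p = 1.70e-05).

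MMP10 (ENSG00000166670), a stromelysin that cuts proteoglycans and activates other MMP precursors, lies close to MMP1 in the MMP cluster of chromosome 11 (GRCh38, MMP10 at 102770503-102780628 and MMP1 at 102789920-102798160, both on the minus strand). Its counts were 46, 16, and 59 in the 24 h control and 3, 4, and 4 in the 24 h Arg group. No overlap was seen, and the level in CPM was between 0.904 and 3.42 in the control and between 0.169 and 0.233 with Arg. The summed counts of 121 and 11 gave a ratio of control to Arg of 11.03 (95% exact binomial interval 5.95 to 22.7, which covers counting error only), and the fitted log2 fold change was -3.42 (SE 0.57, adjusted p = 0.00151). MMP10 passed the filter only through the 24 h control, so a gene with its level had to differ to be tested at all.

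ADAM8 (ENSG00000151651), a membrane protease known from leukocytes and from invading epithelial cells, was at 13.9, 8.08, and 9.44 CPM in the 24 h control and at 3.54, 4.19, and 2.69 CPM with Arg. The 2 ranges were well separated, with the lowest control library above the highest Arg library. Its log2 fold change was -1.60 (SE 0.23, adjusted p = 0.000472), a 3.02-fold lower level.

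TIMP3 (ENSG00000100234) was the only TIMP called. Its level was 357, 383, and 400 CPM in the 24 h control and 257, 268, and 257 CPM with Arg, with little spread within either group. The log2 fold change was -0.54 (SE 0.075, adjusted p = 0.000279), a 1.46-fold lower level. The other inhibitors did not pass the test, with log2 fold changes of -0.15 for TIMP1 (adjusted p = 0.419), 0.01 for TIMP2 (0.967), and 0.51 for TIMP4 (0.437).

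**Figure D2:**
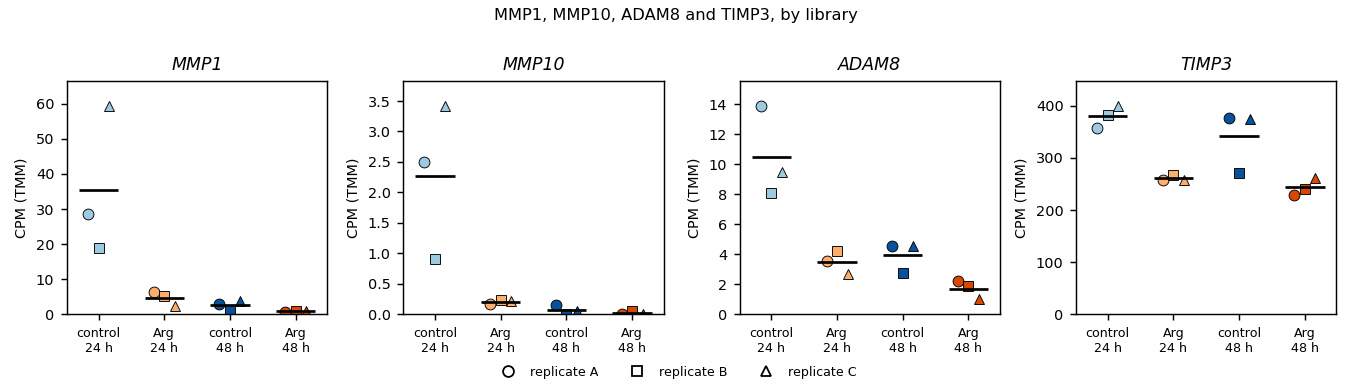
CPM (TMM-normalized, linear axis from 0) of MMP1, MMP10, ADAM8, and TIMP3 in each of the 12 libraries, with the marker shape giving the replicate and the bar the group mean. At 24 h the 3 Arg libraries lie below the 3 control libraries in every panel, and control replicate B at 48 h is the lowest of its group in every panel.

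The promoters of MMP10, ADAM8, and TIMP3, which were called lower with Arg at 24 h, are shown so that their letters can be compared. RefSeq's promoter table (GRCh38.p14) held 38 of the 65 members, among them these genes. It held no entry for MMP1, which was also called, so the promoter of MMP1 was not examined. The 250 bases before each gene's start are given 5′ to 3′ on the gene's strand, with the TATAAA motif in capitals. MMP10 (chr11:102780629-102780878, minus strand), ADAM8 (chr10:133276869-133277118, minus strand), and TIMP3 (chr22:32801455-32801704, plus strand) had a GC content of 34.4%, 73.6%, and 72.4%.
MMP10: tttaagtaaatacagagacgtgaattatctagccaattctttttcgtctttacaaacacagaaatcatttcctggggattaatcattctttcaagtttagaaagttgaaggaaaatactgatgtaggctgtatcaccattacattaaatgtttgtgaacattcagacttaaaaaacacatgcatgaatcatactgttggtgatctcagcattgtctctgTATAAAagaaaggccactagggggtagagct
ADAM8: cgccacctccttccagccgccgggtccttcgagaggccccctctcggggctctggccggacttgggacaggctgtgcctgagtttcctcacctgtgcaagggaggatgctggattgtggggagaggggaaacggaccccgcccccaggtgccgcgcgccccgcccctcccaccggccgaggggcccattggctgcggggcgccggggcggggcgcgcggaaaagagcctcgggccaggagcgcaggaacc
TIMP3: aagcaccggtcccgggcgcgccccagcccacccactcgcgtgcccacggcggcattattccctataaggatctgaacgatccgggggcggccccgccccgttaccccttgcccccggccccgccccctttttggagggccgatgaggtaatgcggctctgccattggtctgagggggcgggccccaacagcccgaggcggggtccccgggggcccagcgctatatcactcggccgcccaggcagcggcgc
TATAAA was searched on the gene's strand, and it was found in MMP10 and in neither of the other two. Over all 35116 promoters of the table, 6.80% held it, and 6 of the 38 members did (MMP7, MMP8, MMP10, MMP20, MMP21, and MMP26). The AP-1 site TGAGTCA, searched on both strands, was in none of the 3 windows, in 1 of the 38 members (MMP7), and in 4.20% of all promoters. The ETS site AGGAAG, searched on both strands, was also in none of the 3 windows, in 9 of the 38 members, and in 28.7% of all promoters, and the tested members with it were ADAM10, ADAM17, TIMP1, and TIMP4. A match is a description of these letters only, and a site outside the window was not looked for.

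The gelatinase MMP9, which cuts denatured collagen and basement membrane collagen, stood at 1.90, 1.86, and 2.84 CPM in the 24 h control and at 0.899, 1.22, and 0.914 CPM with Arg. These ranges were apart, but the difference did not pass the test (log2 fold change -1.12, SE 0.37, adjusted p = 0.0785). It passed where only genes with at least 10 counts in every library were tested (adjusted p = 0.0497). MMP9 overlaps the antisense gene SLC12A5-AS1, which had a log2 fold change of -1.85 (adjusted p = 0.0551), and without the strand of the reads the 2 genes cannot be told apart. The collagenase MMP13 was at 0.758, 1.24, and 0.695 CPM in the control and at 0.337, 0.408, and 0.591 CPM with Arg, with no overlap, and did not pass the test (adjusted p = 0.251). The abundant membrane-type MMP14, which activates the MMP2 precursor at the cell surface, was at 208, 236, and 188 CPM in the control and at 197, 265, and 274 CPM with Arg. These ranges overlapped, and the log2 fold change of 0.21 (SE 0.11) had an adjusted p of 0.256. Without Arg replicate A, the lowest of its group, MMP14 was called (0.35, adjusted p = 0.0338).

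The sheddases of the ADAM family were close to equal in both media at 24 h. ADAM10, which releases cadherins, Notch, and several growth factors, was at 166, 192, and 187 CPM in the control and at 189, 176, and 197 CPM with Arg. ADAM17, the TNF-α-converting enzyme and main sheddase of amphiregulin and TGF-α, was at 36.7, 47.2, and 42.1 CPM in the control and at 40.7, 39.3, and 41.1 CPM with Arg. The ranges overlapped for both, with log2 fold changes of 0.04 (SE 0.082, adjusted p = 0.795) and -0.06 (SE 0.10, adjusted p = 0.782). ADAM9 and ADAM15 each had a log2 fold change of -0.02, and the 22 members that were tested and not called at 24 h lay between -1.12 and 0.65. The ADAMs that lack the zinc-binding motif (ADAM11, ADAM22, and ADAM23) and the ADAMTSs tested (ADAMTS1, ADAMTS15, and ADAMTS17) were all among those 22.

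The mitochondrially encoded share of the counts also differed at 24 h, at between 1.20% and 1.30% in the control and between 0.624% and 0.802% with Arg. The summed level of the 5 melanocyte markers was between 21.7 and 25.9 CPM in the control and between 16.2 and 18.99 CPM with Arg, most of it from MITF, with TYR at 0. The part of either in these results was not tested, and in bulk samples fewer cells of a type and less RNA per cell cannot be told apart.

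The same comparison at 48 h gave no call, and MMP10 was not tested in it, with 4 counts in the control and 1 with Arg. None of the 26 members tested passed an adjusted p of 0.05 in edgeR's test, against 0.117% of all genes tested, and DESeq2 called 1, TIMP3 (adjusted p = 0.000878). At an unadjusted p under 0.05, 4 members were lower with Arg and none was higher (15.4% of 26, against 13.4% of all genes in either direction), namely TIMP3, MMP1, ADAM8, and TIMP1. In 5 members the groups did not overlap (19.2%), against 17.1% of all genes. The median log2 fold change of the members was -0.12, and that of all genes was 0.0018.

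TIMP3 was at 378, 272, and 375 CPM in replicates A, B, and C of the 48 h control and at 230, 240, and 261 CPM with Arg. Control and Arg libraries were separate, and control replicate B lay nearer to the Arg libraries than to the other control libraries. The log2 fold change was -0.49 (SE 0.11, adjusted p = 0.133). It passed with the replicate block (adjusted p = 0.00834) and in a single model of all 12 libraries (adjusted p = 0.0351). Without control replicate B it was -0.63 (adjusted p = 7.90e-08).

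MMP1 was at 2.94, 1.24, and 3.65 CPM in the 48 h control and at 0.730, 0.893, and 1.04 CPM with Arg, on 148 and 47 counts in all. ADAM8 was at 4.51, 2.75, and 4.56 CPM and at 2.19, 1.91, and 0.979 CPM. Neither gene's groups overlapped, and control replicate B was again the lowest of its group. The log2 fold changes were -1.56 for MMP1 (SE 0.43, adjusted p = 0.177) and -1.21 for ADAM8 (SE 0.34, adjusted p = 0.181), and without control replicate B they were -1.89 (adjusted p = 0.00107) and -1.41 (adjusted p = 0.00356).

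TIMP1, a broad MMP inhibitor that blocks MMP14 only weakly, was at 65.2, 44.8, and 68.5 CPM in the 48 h control and at 43.7, 46.5, and 47.5 CPM with Arg. The groups overlapped through control replicate B. The log2 fold change was -0.38 (SE 0.13, adjusted p = 0.243), and without that library it was -0.54 (adjusted p = 2.24e-05). Leaving it out raised the number of members called from 0 to 6, all lower with Arg (these 4 with MMP12 and MMP17), in a fit that called 2365 genes instead of 17. MMP17 went from -1.10 (adjusted p = 0.468) to -1.54 (adjusted p = 0.0399). MMP12 was not tested here with all libraries, at 17, 2, and 28 counts in replicates A, B, and C of the 48 h control and 5, 8, and 1 with Arg. Without control replicate B it was -2.16 (adjusted p = 0.0284), and it passed the filter only through the remaining control libraries. The other genes of the 24 h account had log2 fold changes at 48 h of 0.03 for MMP14 (adjusted p = 0.869), 0.26 for MMP9 (0.854), 0.02 for ADAM10 (0.929), -0.04 for ADAM17 (0.858), and -0.09 for TIMP2 (0.597).

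**Figure D3:**
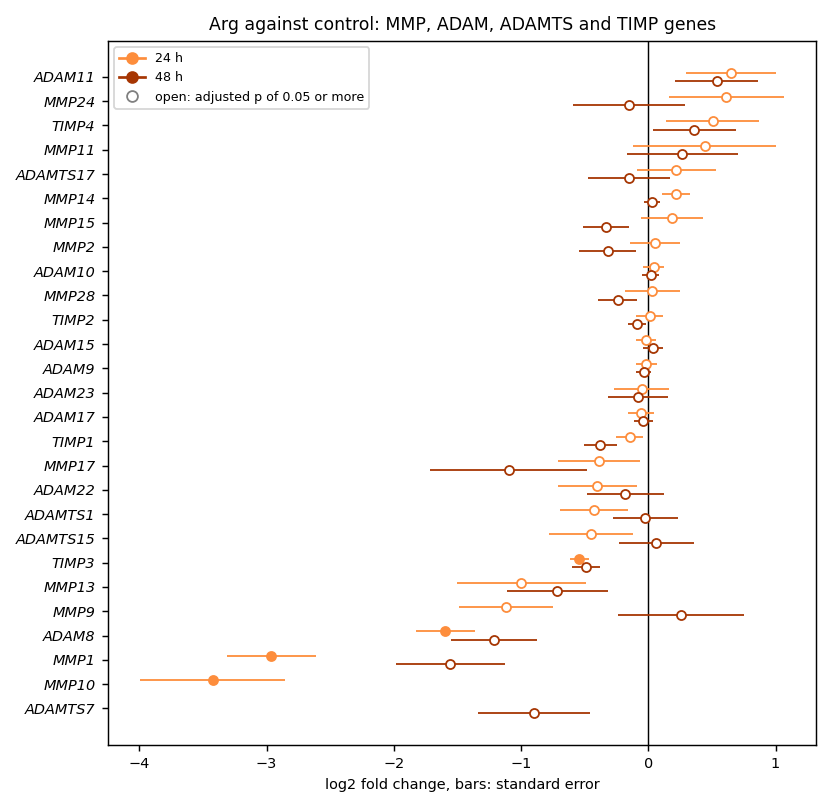
Log2 fold change of Arg against control at 24 h (light) and 48 h (dark) for each member tested, with bars of 1 standard error and open circles where the adjusted p is 0.05 or more. MMP10, MMP1, ADAM8, and TIMP3 at 24 h are the filled points, and no point at 48 h is filled.

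Whether the Arg effect differed between 24 and 48 h was tested as an interaction over all 12 libraries. None of the 29 members tested was called by edgeR, against 0.0132% of all genes, and DESeq2 called 0. With no filter on low counts, edgeR called MMP1 (adjusted p = 0.0147). In the filtered fit, 1 member had an unadjusted p under 0.05 (MMP9, 3.45% of 29, against 6.87% of all genes). The difference of the log2 fold changes, 48 h minus 24 h, was 1.38 for MMP9 (SE 0.62, adjusted p = 0.708), 1.41 for MMP1 (SE 0.69, adjusted p = 0.731), 0.38 for ADAM8 (SE 0.41, adjusted p = 0.909), and 0.05 for TIMP3 (SE 0.14, adjusted p = 0.970). A call at 24 h and none at 48 h was thus not shown to be a difference between the times.

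More members were called between the times than between the media. Between 24 and 48 h without Arg, 11 of the 28 members tested were called (39.3%, against 19.9% of all genes), 5 higher (against 9.90%) and 6 lower (against 10%). MMP14, MMP15, MMP28, ADAM10, and TIMP2 were higher at 48 h, and MMP1, MMP10, ADAM8, ADAM15, ADAMTS1, and TIMP1 were lower. MMP10 is in these counts although it passed the filter only through the 24 h control, the group in which it was high. With Arg, 12 of the 25 members tested were called (48%, against 28.3% of all genes), 6 higher (against 14.3%) and 6 lower (against 14.0%). In this medium MMP14, MMP28, ADAM10, ADAM17, ADAMTS15, and TIMP2 were higher, and MMP1, MMP17, ADAM8, ADAM15, ADAMTS1, and TIMP1 were lower. MMP17 passed the filter here with the help of the 24 h group, in which it was high. The groups did not overlap in 13 members without Arg (46.4%, against 39.0% of all genes) and in 15 with Arg (60.0%, against 42.2%), and the medians of the members were 0.02 and -0.01.

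Called in both media were 9 members, and each of the 9 had the same direction in both. ADAM17, ADAMTS15, and MMP17 were called with Arg only. MMP10 and MMP15 were called without Arg only, and MMP10 was not tested with Arg. Since the interaction called none of these genes, the effect of time was not shown to differ between the media. The comparisons share groups, with the 24 h control in both the Arg comparison at 24 h and the time comparison without Arg, so their values are not independent.

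Of the enzymes that act at the cell surface, MMP14 was at 208, 236, and 188 CPM at 24 h and at 353, 355, and 350 CPM at 48 h without Arg. With Arg, it was at 197, 265, and 274 CPM at 24 h and at 336, 360, and 387 CPM at 48 h. All 48 h libraries were above all 24 h libraries, and the 3 control libraries at 48 h were almost level. The log2 fold changes were 0.75 without Arg (SE 0.084, adjusted p = 0.000884) and 0.56 with Arg (SE 0.095, adjusted p = 0.000194).

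MMP15, a second transmembrane MMP, was at 5.80, 6.66, and 3.36 CPM at 24 h and at 9.44, 8.25, and 9.97 CPM at 48 h without Arg. The groups did not overlap (log2 fold change 0.81, SE 0.23, adjusted p = 0.0310). With Arg it went from 5.17, 5.36, and 7.47 CPM to 6.41, 6.49, and 9.10 CPM, which overlapped (0.29, adjusted p = 0.314). The call without Arg was lost without control replicate A or C at 24 h (adjusted p = 0.0843 and 0.107).

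MMP17, which is held in the membrane by a lipid anchor, was at 1.57, 2.16, and 2.04 CPM at 24 h and at 0.469, 1.01, and 0.633 CPM at 48 h with Arg, with no overlap. Its log2 fold change was -1.45 (SE 0.42, adjusted p = 0.0140). The counts of MMP17 at 48 h with Arg were 9, 17, and 11. It passed the filter with the help of the 24 h group, in which it was high. It was not tested where every library had to hold at least 10 counts. Without Arg it was at 2.17, 1.98, and 3.42 CPM and at 1.15, 0.415, and 2.95 CPM, and the wide spread at 48 h made the groups overlap (-0.74, adjusted p = 0.350).

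MMP28 (epilysin), an MMP of resting and wounded epithelium, was at 6.50, 6.66, and 7.30 CPM at 24 h and at 14.1, 16.9, and 12.2 CPM at 48 h without Arg. With Arg it was at 5.45, 5.71, and 9.73 CPM and at 14.0, 10.8, and 11.7 CPM. Neither pair of groups overlapped, and the log2 fold changes were 1.08 (SE 0.16, adjusted p = 0.00239) and 0.81 (SE 0.20, adjusted p = 0.00444). MMP28 had 2216 counts over the 12 libraries and overlaps the oppositely oriented TAF15, which had 32860, and the log2 fold changes of TAF15 were 0.20 (adjusted p = 0.0870) and 0.08 (adjusted p = 0.602).

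The secreted collagenase MMP1 moved the other way. Its 24 h levels without Arg, between 18.9 and 59.4 CPM, were followed by 2.94, 1.24, and 3.65 CPM at 48 h, and with Arg levels between 2.26 and 6.29 CPM were followed by 0.730, 0.893, and 1.04 CPM. The groups did not overlap in either medium, with log2 fold changes of -3.76 (SE 0.42, adjusted p = 0.000884) and -2.36 (SE 0.37, adjusted p = 9.82e-05). MMP10 had 121 counts at 24 h and 3, 0, and 1 counts at 48 h without Arg. The ratio of 24 to 48 h was 32.3 (95% exact binomial interval 12.3 to 120.4, counting error only), with an adjusted p of 0.00281. Here too MMP10 passed the filter only through the 24 h control, so a gene with its level had to differ to be tested. The fitted log2 fold change of -4.88 became -6.10 without control replicate A at 48 h, which held 3 of the 4 counts.

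MMP9 and MMP2, the gelatinases, were not called over time in either medium. MMP9 was at 0.577, 1.66, and 0.536 CPM in the 48 h control and at 0.939, 1.37, and 1.04 CPM in the 48 h Arg group. Its log2 fold changes over time were -1.24 without Arg (adjusted p = 0.0770) and 0.14 with Arg (adjusted p = 0.845), and the difference of these was the interaction given above. MMP2 had log2 fold changes of -0.18 (adjusted p = 0.603) and -0.55 (adjusted p = 0.0517).

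Of the inhibitors, TIMP1 and TIMP2 moved in opposite directions. TIMP1 was at 95.8, 72.7, and 93.8 CPM at 24 h and at 65.2, 44.8, and 68.5 CPM at 48 h without Arg, and at 76.0, 77.2, and 84.0 CPM and then 43.7, 46.5, and 47.5 CPM with Arg. The groups did not overlap in either medium, and the log2 fold changes were -0.55 (SE 0.15, adjusted p = 0.0237) and -0.78 (SE 0.080, adjusted p = 7.00e-07). TIMP2, which takes part in the activation of the MMP2 precursor by MMP14, was at 96.9, 112, and 84.0 CPM at 24 h and at 154, 147, and 149 CPM at 48 h without Arg. With Arg it was at 88.0, 98.4, and 109 CPM and then at 130, 146, and 148 CPM. Every 48 h library was above every 24 h library of its medium, with log2 fold changes of 0.62 (SE 0.099, adjusted p = 0.00293) and 0.52 (SE 0.083, adjusted p = 9.93e-05). TIMP3 and TIMP4 were not called over time, at -0.15 and 0.66 without Arg and -0.10 and 0.52 with Arg on the log2 scale.

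**Figure D4:**
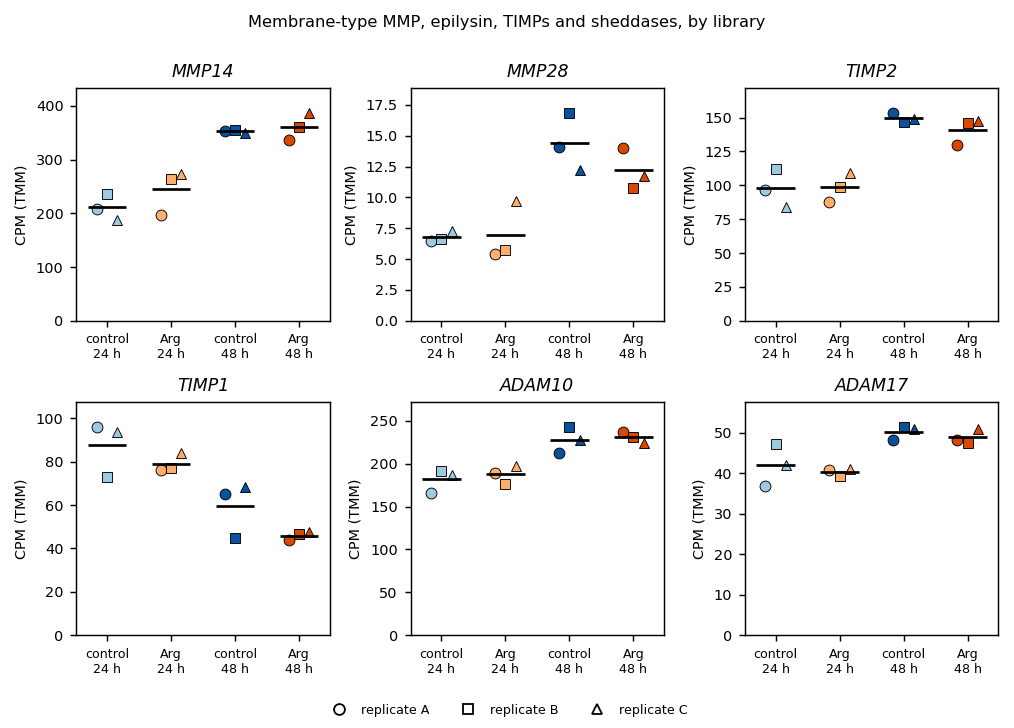
CPM (TMM-normalized, linear axes from 0) of MMP14, MMP28, TIMP2, TIMP1, ADAM10, and ADAM17 in each of the 12 libraries, with the marker shape giving the replicate and the bar the group mean. In both media MMP14, MMP28, and TIMP2 lie higher at 48 h than at 24 h with no overlap, and TIMP1 lies lower.

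The sheddases changed little in size but with little spread. ADAM10 was at 213, 242, and 227 CPM at 48 h without Arg and at 237, 231, and 224 CPM with Arg, above all 24 h libraries of the same medium. Its log2 fold changes were 0.33 (SE 0.081, adjusted p = 0.0168) and 0.30 (SE 0.068, adjusted p = 0.00230). ADAM17 was at 48.2, 51.4, and 50.8 CPM at 48 h without Arg and at 48.2, 47.5, and 51.0 CPM with Arg. These also lay above the 24 h libraries, but ADAM17 passed the test only with Arg (0.28, SE 0.082, adjusted p = 0.0161) and not without (0.26, SE 0.10, adjusted p = 0.0940). ADAM17 had 9869 counts and overlaps the oppositely oriented IAH1, which had 6885 and log2 fold changes of -0.13 (adjusted p = 0.428) without Arg and -0.26 (adjusted p = 0.0631) with Arg.

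ADAM15, a metalloproteinase-disintegrin that binds integrins, was at 233, 206, and 206 CPM at 24 h and at 184, 152, and 186 CPM at 48 h without Arg, and at 205, 219, and 215 CPM and then 170, 189, and 178 CPM with Arg. The 48 h libraries were lower with no overlap, by log2 fold changes of -0.30 (SE 0.091, adjusted p = 0.0372) and -0.25 (SE 0.067, adjusted p = 0.00872). ADAM8 was also lower at 48 h, by -1.41 without Arg (SE 0.25, adjusted p = 0.00440) and by -1.03 with Arg (SE 0.33, adjusted p = 0.0237), with the library values given above. ADAM9 stayed between 132 and 151 CPM in all 12 libraries, with log2 fold changes of 0.01 and -0.01 that did not pass the test (adjusted p = 0.919 and 0.953).

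The ADAMTSs called were ADAMTS1 and ADAMTS15, both able to cut aggrecan and versican. ADAMTS1 was at 8.72, 4.52, and 12.3 CPM at 24 h and at 4.67, 2.96, and 4.24 CPM at 48 h without Arg, and at 7.87, 5.59, and 5.59 CPM and then 4.49, 3.04, and 4.15 CPM with Arg. The groups overlapped without Arg and not with Arg, and the log2 fold changes were -1.10 (SE 0.32, adjusted p = 0.0309) and -0.70 (SE 0.22, adjusted p = 0.0231). ADAMTS15 was at 1.80, 2.62, and 1.77 CPM at 24 h and at 4.75, 3.63, and 3.92 CPM at 48 h with Arg, with no overlap (0.99, SE 0.27, adjusted p = 0.00991). Without Arg it was at 2.06, 4.07, and 2.32 CPM and at 2.89, 5.91, and 2.95 CPM, which overlapped (0.48, adjusted p = 0.367). Low ADAMTS7 (205 counts in all) lies opposite MORF4L1 (86492 counts) and had a log2 fold change of 1.08 without Arg (adjusted p = 0.0928).

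**Figure D5:**
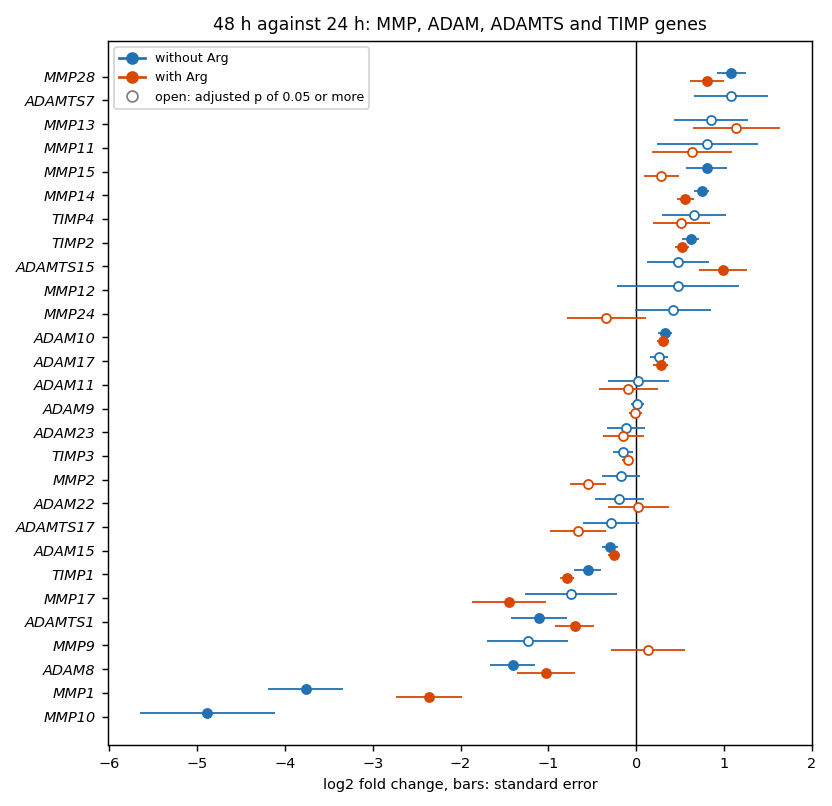
Log2 fold change of 48 h against 24 h without Arg (blue) and with Arg (orange) for each member tested, with bars of 1 standard error and open circles where the adjusted p is 0.05 or more. The 9 members filled in both colors lie on the same side of 0 in both media.

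Several calls over time without Arg were lost when a single library was left out, some of them with any of several libraries. Leaving out replicate A or replicate C of the 24 h control lowered the number of members called from 11 to 6. ADAM10, ADAM15, ADAMTS1, MMP15, and TIMP1 were lost both times. The share of all genes called in these smaller fits is not given here, so the fall is not read as a trait of the members. The calls for MMP1, MMP10, MMP14, MMP28, ADAM8, and TIMP2 remained when any single library was left out, with MMP10 still tested only through the 24 h control. Without these 2 libraries in turn, the adjusted p was 0.0986 and 0.0590 for ADAM10, 0.167 and 0.0805 for ADAM15, 0.107 and 0.167 for ADAMTS1, and 0.115 and 0.101 for TIMP1. ADAM15 was also lost without control replicate A or B at 48 h (0.0575 and 0.0734), MMP15 without A or C (0.0788 and 0.0786), and ADAMTS1 without B or C (0.0602 and 0.0518). ADAM17 was called without control replicate B at 24 h (0.0312), and MMP9 without control replicate B at 48 h (-1.96, adjusted p = 0.0106). MMP17 was called without control replicate C at 48 h (-1.67, adjusted p = 0.0417). MMP3, not tested with all libraries, had 4, 6, and 0 counts in the 48 h control. It was called without control replicate B at 24 h (-3.58, adjusted p = 0.00552) or at 48 h (-3.76, adjusted p = 0.0259), with DESeq2 (-3.13, adjusted p = 0.00533), and with no filter on low counts (-3.08, adjusted p = 2.46e-05). Where a library was left out, MMP3 passed the filter only through the 24 h control.

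With Arg, MMP1, MMP14, MMP28, ADAM10, TIMP1, and TIMP2 kept their calls when any single library was left out. Without Arg replicate A at 48 h, ADAM15 (adjusted p = 0.0552), ADAMTS15 (0.0602), and MMP17 (0.0775) were lost, and without replicate C at 48 h, ADAM17 (0.0717), ADAM8 (0.105), and MMP17 (0.0531). ADAM8 (0.101) and MMP17 (0.0531) were also lost without Arg replicate B at 24 h, and ADAMTS1 without Arg replicate A at 24 h (0.116) or B at 48 h (0.111). MMP2 was called without Arg replicate C at 24 h (-0.66, adjusted p = 0.0349).

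Markers of other cell types also moved with time. The summed level of the 10 fibroblast markers went from between 104 and 142 CPM to between 185 and 218 CPM without Arg and from between 91.1 and 122 CPM to between 187 and 208 CPM with Arg. Over all 12 libraries it came mostly from FBLN1 (19693 counts), DCN (9738), and COL1A1 (3957), with 281 counts for LUM and 200 for PDGFRB, while COL1A2, COL3A1, POSTN, THY1, and PDGFRA had between 1 and 14. The mean of COL1A1, a chain of type I collagen, went from 12.4 to 24.4 CPM without Arg and from 13.0 to 22.6 CPM with Arg, and that of the proteoglycan DCN from 31.7 to 66.7 CPM and from 19.5 to 59.4 CPM. The 6 endothelial markers summed to between 0.921 and 3.28 CPM at 24 h and between 4.32 and 6.62 CPM at 48 h, with CDH5 at 3 counts in all. The mitochondrially encoded share went from between 0.624% and 0.802% to between 1.14% and 1.31% with Arg, with no overlap, and from between 1.20% and 1.30% to between 0.707% and 1.55% without Arg. The part of these in the time results was not tested.

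The other genes of the pathway were taken from 7 lists. These were chosen with earlier results of these data known, so their counts are a description and not a test. Any link between these genes and the members was not tested. At 24 h, the list of AP-1 and ETS transcription factors, which bind collagenase and stromelysin promoters, had 8 of 14 tested genes lower with Arg (3.84% of all genes were lower) and none higher (2.79% of all genes), with log2 fold changes of -2.05 for FOS, -1.96 for FOSB, and -1.39 for ATF3. Of 7 other inhibitors and inducers tested, 2 were lower, TFPI2, a matrix-bound inhibitor of plasmin, at -2.22 and the proteoglycan SPOCK1 at -0.58. TFPI2 was at 139 CPM in the control and 29.7 CPM with Arg on average. The medians of these 2 lists were -0.48 and -0.03.

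Among 30 tested substrates of ADAM10 and ADAM17, 4 were lower and 1 was higher at 24 h. For this list and the other lists at 24 h, the shares over all genes were 3.84% lower and 2.79% higher. The tumor necrosis factor receptor TNFRSF1B (-1.31) and the EGF receptor ligands AREG (-0.83) and EPGN (-0.53) had the largest changes among the 5 called. Of 12 matrix proteins made by keratinocytes, tenascin-C (TNC) was lower at -0.83 and fibronectin (FN1) was higher at 0.49. None of the 9 genes for proprotein convertases and plasminogen activation, the 9 partners of ADAM10 and ADAM17, or the 3 ADAMTS-like genes tested was called by edgeR. At an unadjusted p under 0.05 there were 4, 1, and 1 of them, against 22.8% of all genes. At 48 h, FOS was the only gene of the 7 lists that was called (-0.94, adjusted p = 0.000507), and it was also the only one called in the interaction (1.11, adjusted p = 0.0229). Over all genes, 0.117% were called at 48 h and 0.0132% in the interaction.

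Between 24 and 48 h, the AP-1 and ETS list had 3 higher and 5 lower of 14 without Arg (against 9.90% and 10% of all genes), led by FOSB (-2.17), FOSL1 (-1.77), and ETV4 (-1.20), and 8 higher and 4 lower with Arg (against 14.3% and 14.0%), led by ETV4 (-1.35), FOSL1 (-1.16), and FOS (0.83). The substrates of ADAM10 and ADAM17 had 6 higher and 5 lower of 30 without Arg, among them EREG (-1.41) and AREG (-1.36), and 11 higher and 6 lower with Arg, among them EREG (-1.39), the endocytic receptor LRP1 (1.22), and AREG (-1.06). The matrix proteins had 4 higher and 2 lower of 12 without Arg and 5 higher and 4 lower with Arg. Beside the counts of both lists, the shares over all genes were again 9.90% higher and 10% lower without Arg, and 14.3% and 14.0% with Arg. TNC was lower (-1.71 and -2.31) and type VII collagen COL7A1, the anchoring fibril collagen, was higher (0.92 and 1.16) in both media.

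Of the 7 other inhibitors and inducers, TFPI2 was lower at 48 h in both media (-2.92 and -2.35) and was the only call without Arg. With Arg, papilin (PAPLN, 2.10), which is related to the ADAMTSs, was higher and CST6, an inhibitor of cysteine proteases, was lower (-1.17). Of the 9 convertases and plasminogen activation genes, 0 were higher and 1 was lower without Arg, and 2 were higher and 1 was lower with Arg. The 2, PLAT (0.60), which activates plasminogen, and FURIN (0.33), which activates metalloproteinase precursors, were called higher in that medium. ADAMTSL4 (0.93) was the only one of the 3 ADAMTS-like genes called, without Arg. The partners of ADAM10 and ADAM17 had no call without Arg (2 of 9 at an unadjusted p under 0.05, against 34.1% of all genes). With Arg they had 3 higher and 3 lower of 9, led by the tetraspanins TSPAN5 (-0.94), TSPAN10 (0.86), and TSPAN33 (-0.47). For every list in this paragraph, the shares called over all genes were 9.90% higher and 10% lower without Arg. With Arg, these shares were 14.3% higher and 14.0% lower.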

How the data were processed

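TIGK cells were sequenced by poly(A) RNA-seq in 4 groups of 3 libraries. Before they deposited the raw counts per gene, the authors used fastp to filter reads, STAR to map them to GRCh38/hg38, and featureCounts to count them. The annotation release, strand setting, and versions are not given in the sources used here, so overlapping genes are reported as uncertain. The deposited counts, which summed to between 16542243 and 19040964 per library, were used as they stand, with 0 columns left out.

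Pairs of groups were compared with edgeR 4.0.16 in R 4.3.3 (quasi-likelihood test after TMM, filterByExpr on low counts, no block), and the interaction was fitted on all 12 libraries. The p-values were two-sided and adjusted (Benjamini-Hochberg) over every gene that entered the fit, and a gene was called at an adjusted p under 0.05. The standard error is the absolute log2 fold change divided by the square root of F. CPM values use TMM factors of all 12 libraries. The code was tested on simulated data with known changes, and at 24 h it recovered 93 of 100 genes changed by a log2 fold of 2 and 68 of 100 changed by 1, with 9 false calls. For Arg at 48 h it recovered 93 and 68 of 100, with 18 false calls. For the interaction it recovered 84 and 53 of 100, with 7 false calls.

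The genes, roles, related lists, and markers were chosen with earlier results of these data known. Named with all their values were the members called in at least 1 comparison and MMP1, MMP9, MMP14, ADAM10, ADAM17, TIMP1, TIMP2, and TIMP3, and of each related list at most the 3 called genes with the largest change, apart from a gene that is not reported here. The alternatives tried were DESeq2 1.42.0, the size factors of DESeq2 in edgeR, library size only, no filter, at least 10 counts in every library, a replicate block, all 12 libraries in a single model, and leaving out each library in turn. Protein sequences were not used here.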

Additional observations from a re-analysis of the deposited data

How the results depend on the processing

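At 24 h, the 4 calls with Arg held under each alternative that tested them. MMP10 was not tested with at least 10 counts in every library, and the number of members called lay between 4 and 6 when a library was left out. Gained were MMP9 with at least 10 counts in every library (adjusted p = 0.0497), MMP3 with no filter and, with ADAMTS1, without control replicate B, and MMP14 without Arg replicate A. At 48 h, the number with Arg was 0, and it became 1 with DESeq2, 1 with the replicate block, and 1 with all 12 libraries in a single model, TIMP3 each time (adjusted p = 0.000878, 0.00834, and 0.0351), and 4 with no filter on low counts (TIMP3, TIMP1, MMP1, and ADAM8). Leaving out a library gave between 0 and 6. For time without Arg, the number was 11 and lay between 6 and 13 when a library was left out, and for time with Arg it was 12 and lay between 9 and 13. For the interaction, no filter gave 1 call (MMP1, 1.41, adjusted p = 0.0147), and leaving out a library gave 0. With no filter, TIMP3 for Arg at 48 h had a log2 fold change of -0.492 and an adjusted p of 2.30e-09 in edgeR's test. The shares of all genes called under these alternatives are not given here, so the shifts are not read as a trait of the members. The cause of these shifts was not tested.

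Between libraries of the same letter, the correlations of their deviations lay between -0.115 and 0.225. They were 0.106, 0.225, and 0.0691 for A, B, and C over time without Arg. With 3 libraries per group, these values cannot decide whether the letters pair the libraries. The replicate block changed the number of members called from 11 to 13 for time without Arg (ADAM17 and MMP9 gained), and the number stayed at 4 for Arg at 24 h and at 12 for time with Arg. Of the calls over time, ADAM15 was lost without Arg with library size only (adjusted p = 0.0778), and with Arg ADAMTS1 and MMP17 were lost in a single model of all 12 libraries (0.0890 and 0.0512).

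Over all members tested, leaving out a library put 18 log2 fold changes on the other side of 0 for Arg at 24 h, 17 for Arg at 48 h, 8 for time without Arg, 9 for time with Arg, and 38 in the interaction. Among the members named with all their values, the log2 fold changes lay between -0.0176 and 0.0846 for ADAM10, -0.148 and 0.0307 for ADAM17, and -0.0919 and 0.118 for TIMP2 with Arg at 24 h, between -0.0270 and 0.0688 for ADAM10, -0.0147 and 0.987 for MMP9, and -0.0193 and 0.0770 for MMP14 with Arg at 48 h, between -0.0292 and 0.293 for MMP9 over time with Arg, and between -0.0855 and 0.133 for TIMP3 in the interaction. The order of the members by level was the same with library-size CPM. The 36 genes tested in no comparison did not pass the filter on low counts, and MMP3 among them was called where the filter was off or a library was left out, and over time without Arg also with DESeq2.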
